A study of Mus musculus with 50 samples.

Results

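The collagen chains and the matrix genes of fibroblasts were followed through mouse embryonic stem (ES) cells and epiblast-like cells (epiLC). The genes were chosen by name: every gene whose symbol has the collagen form Col, number, a, number, together with Dcn, Lum, Postn, Fbn1 and Fn1. The 3 tables of TPM values (transcript abundance scaled for transcript length and library total) list 49 such genes, 44 of them collagen chains, among 55421 genes. The table of FPKM values (fragments scaled for transcript length and depth) lists 32 of them, 30 of them collagen chains, among 17043 genes, and it holds no gene that is 0 in a library, so Dcn, Lum, Postn and Col3a1 have no FPKM value.

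The series is about developmental genes regulated by β-catenin and the proteins bound to it. V6.5 ES cells, kept naive in 2i medium by blocking the kinases MEK and GSK3, carried 1 of 4 short hairpins: shGFP as the mock control (n = 6), shBcat against β-catenin (n = 2), shE2F6 against E2F6 (n = 2) or shHP1r against a target labelled HP1r (n = 2). A line labelled QKO, an abbreviation the labels do not spell out, was kept in 2i with shBcat or shGFP (n = 3 each). Its titles give 48 h with no starting point, and both QKO groups carry whatever alterations the line has. V6.5 cells in 2i and V6.5-derived epiLC at 24 and 48 h, which name no hairpin, share a table (n = 2 each). EpiLC with shBcat at 24, 48 and 96 h and epiLC at 96 h that name no hairpin share another (n = 2 each). Whether replicates were separate cultures is not in the labels, and the p-values below rest on a spread among libraries that may be only technical.

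Collagens are built from 3 chains wound into a triple helix, and the chain types sort into families by the structure they form. Fibril-forming collagens such as types I, III and V make up the fibres of connective tissue and are the hallmark of fibroblasts, which are also the usual feeder cells of ES cell culture. Network-forming collagen IV belongs to basement membranes, the sheets that line the early epiblast, and fibronectin (Fn1) is the adhesive glycoprotein on which many early embryonic cells move.

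Promoters are shown for the chains on which the results below turn. Col3a1 and Col1a2 encode fibril chains that differed most in QKO cells, Col4a1 and Col4a2 encode the main collagen IV chains, and Col18a1 encodes the collagen transcript with the highest mean TPM in V6.5 2i, in every epiLC group and in QKO shBcat (in QKO shGFP it came after Col3a1). Sequences are from RefSeq on GRCm38.p6, from 250 bases before to 50 after the start used for the gene, read 5′ to 3′ on the gene's strand. Capitals mark TATAAA, and CCAAT or its reverse complement ATTGG. The windows lie at chr1:45311288-45311587 on the plus strand (Col3a1), chr6:4505368-4505667 plus (Col1a2), chr8:11312777-11313076 minus (Col4a1), chr8:11312555-11312854 plus (Col4a2) and chr10:77166481-77166780 minus (Col18a1).
Col3a1: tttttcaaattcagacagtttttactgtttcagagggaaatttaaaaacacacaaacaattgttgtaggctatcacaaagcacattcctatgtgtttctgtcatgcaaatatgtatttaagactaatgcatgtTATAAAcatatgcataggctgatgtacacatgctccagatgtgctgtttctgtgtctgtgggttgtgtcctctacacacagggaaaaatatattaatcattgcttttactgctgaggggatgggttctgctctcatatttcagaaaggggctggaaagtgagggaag
Col1a2: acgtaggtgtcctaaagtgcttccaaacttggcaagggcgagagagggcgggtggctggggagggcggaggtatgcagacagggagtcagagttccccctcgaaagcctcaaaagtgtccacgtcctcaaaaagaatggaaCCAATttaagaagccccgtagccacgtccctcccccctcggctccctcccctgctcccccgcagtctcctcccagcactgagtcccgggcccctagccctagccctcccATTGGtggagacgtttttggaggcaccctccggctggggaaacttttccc
Col4a1: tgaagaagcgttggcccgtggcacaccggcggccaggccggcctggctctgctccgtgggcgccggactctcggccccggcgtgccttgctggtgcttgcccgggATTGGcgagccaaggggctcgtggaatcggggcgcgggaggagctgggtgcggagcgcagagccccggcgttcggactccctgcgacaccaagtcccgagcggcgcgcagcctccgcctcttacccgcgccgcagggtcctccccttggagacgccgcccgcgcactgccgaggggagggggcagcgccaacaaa
Col4a2: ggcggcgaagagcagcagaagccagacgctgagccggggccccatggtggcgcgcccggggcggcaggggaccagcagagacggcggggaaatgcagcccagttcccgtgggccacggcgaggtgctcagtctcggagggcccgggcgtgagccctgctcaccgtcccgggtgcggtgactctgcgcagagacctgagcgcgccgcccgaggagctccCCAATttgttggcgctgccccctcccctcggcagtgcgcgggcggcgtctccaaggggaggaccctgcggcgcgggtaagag
Col18a1: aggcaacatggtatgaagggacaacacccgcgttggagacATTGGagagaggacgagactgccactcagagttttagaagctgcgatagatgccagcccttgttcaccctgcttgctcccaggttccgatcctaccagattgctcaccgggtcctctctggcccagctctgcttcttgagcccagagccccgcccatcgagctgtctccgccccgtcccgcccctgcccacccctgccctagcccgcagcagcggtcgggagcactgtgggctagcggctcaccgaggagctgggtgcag

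In the Col3a1 window TATAAA starts 117 bases before the gene start, and in the Col1a2 window CCAAT starts 109 bases before it. Col4a1 and Col4a2 lie head to head on chromosome 8. The starts used for their windows are 21 bases apart, so the windows share 78 identical bases read on opposite strands. The Col4a1 start used lies inside the gene's RefSeq limits, which overlap those of Col4a2 by 85 bases. A CCAAT box starts 32 bases before the Col4a2 start, and ATTGG lies 145 bases before the Col4a1 start and 210 bases before that of Col18a1. Windows were found for 37 of the 49 genes, 41 windows in all. Searched on both strands, TATAAA occurs in 14.6% of these and in 13.6% of all 32851 windows. CCAAT occurs in 34.1% and 37.4%, the GC box GGGCGG in 58.5% and 35.7%, and CTTTGA, the core of the Tcf and Lef site, in 22.0% and 16.0%. None of the 5 printed windows holds CTTTGA, which says only that these letters are not in them. Other members are also neighbours: RefSeq places Dcn and Lum 47337 bases apart on chromosome 10, Col3a1 and Col5a2 24624 bases apart on chromosome 1, and Col4a6 and Col4a5 1274 bases apart on chromosome X.

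Across the libraries, the targeted genes followed the labels. Ctnnb1, which encodes β-catenin, lay at 48.4 to 82.4 TPM in QKO shBcat against 490 to 528 in QKO shGFP, at 142 to 145 against 441 to 448 in epiLC at 96 h, and at 6.58 and 6.61 FPKM against 88.8 to 134 in V6.5 cells. E2f6 lay at 2.57 and 3.54 FPKM with shE2F6 against 8.98 to 10.7 with shGFP, and no gene was read for HP1r. Summed ES cell markers reached 5936 to 6722 TPM in QKO cells, 8384 and 8403 in V6.5 2i and 1851 and 1836 in control epiLC at 48 h. Mitochondrial transcripts took 5.09 to 5.97% of TPM in QKO libraries and 3.18 to 5.40% elsewhere in the TPM tables. In the FPKM table they took 20.4 and 19.3% in shGFP replicates 3 and 4 and 22.9 and 22.3% in shE2F6, against 6.23 to 8.92% in the other shGFP libraries.

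V6.5 2i and control epiLC libraries held part of the gene set. Which cells in them made these transcripts was not tested. In V6.5 2i, 16 of the 49 genes reached 1 TPM in every library, and Fn1, Col18a1 and Col9a2 were the 3 that reached 10 TPM. Another 13 reached 1 TPM in every library of a control epiLC group and not in 2i, among them Col1a1, Col1a2, Col3a1, Col6a5, Col8a2 and Dcn. QKO shGFP cells held 28 at that level, of which 12 were shared with V6.5 2i. The 6 that reached it in QKO shGFP and in no 2i or control epiLC group of V6.5 cells were Col20a1, Col4a6, Col5a2, Col6a3, Lum and Postn. Nothing is tested between these tables, which were normalized separately. A further 13, such as the cartilage chains Col9a1 and Col10a1, reached 1 TPM throughout in no TPM group.

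**Figure D1:**
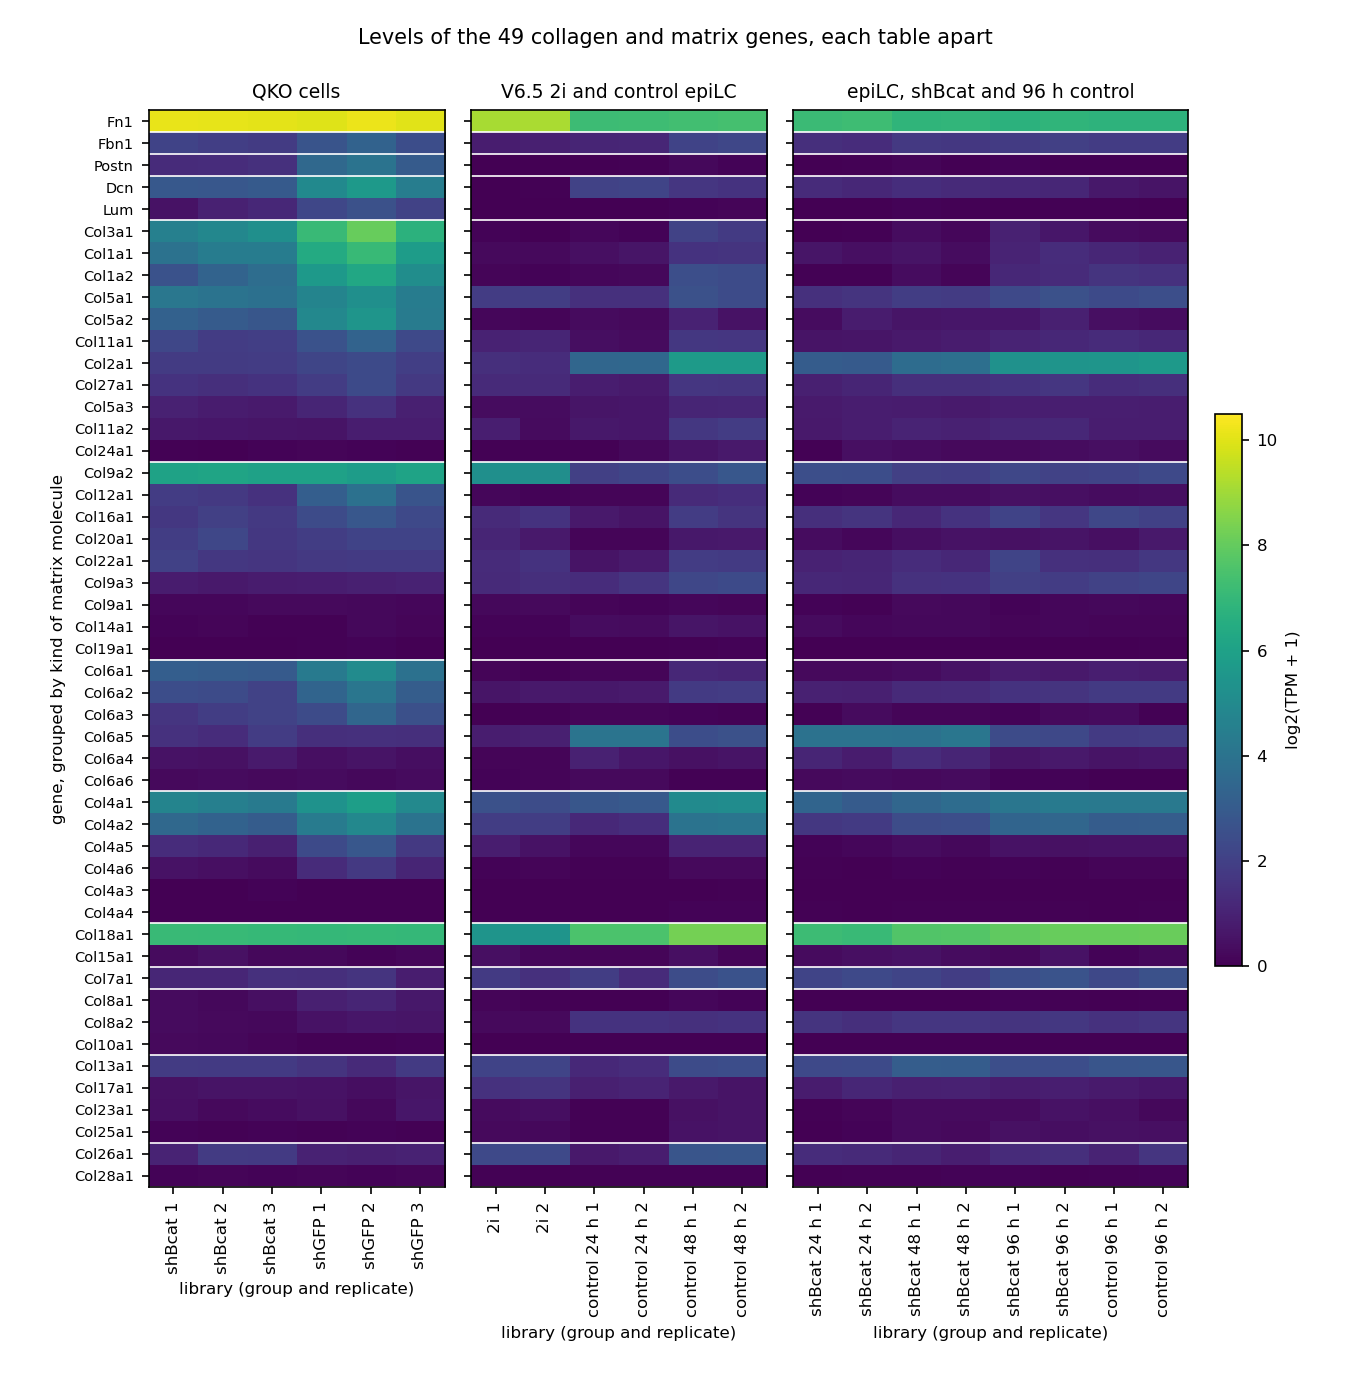
Levels of the 49 genes as log2(TPM + 1) (colour) in every TPM library, one panel per table, genes grouped by the kind of matrix molecule they encode. Fn1, Col18a1 and Col9a2 are bright in QKO cells and V6.5 2i, the fibril chains Col1a1, Col1a2 and Col3a1 are bright in QKO shGFP, and Col2a1 and Col18a1 are brightest in the later epiLC.

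In QKO cells, the abundant matrix transcripts of ES cells lay close together in the hairpin groups. Fn1 measured 1132, 1112 and 1064 TPM with shBcat and 1005, 1167 and 1036 with shGFP, so the groups overlapped. Its log2(TPM + 1) difference was 0.05 (SE 0.06, limma adjusted p = 0.648). Col18a1, whose C-terminal fragment is endostatin, measured 139, 134 and 129 TPM with shBcat and 125, 128 and 128 with shGFP. These groups did not overlap, as for 35.6% of all genes tested, and the difference of 0.08 (SE 0.04) missed the threshold (adjusted p = 0.225). Col9a2, a fibril-associated chain best known from cartilage, measured 65.6, 68.4 and 63.9 TPM with shBcat and 63.5, 54.3 and 67.0 with shGFP, with overlap and an adjusted p of 0.417.

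The fibril-forming chains Col3a1, Col1a1 and Col5a2 were lower with shBcat, and the other 6 tested chains of that family did not pass. Col3a1 measured 23.1, 28.4 and 36.2 TPM with shBcat and 140, 263 and 106 with shGFP, a 5.80-fold difference of means (log2(TPM + 1) difference -2.41, SE 0.36, adjusted p = 0.047). Col1a1, the major chain of collagen I, measured 14.7, 20.0 and 20.1 TPM against 85.1, 135 and 55.3 (5.02-fold lower, adjusted p = 0.047). Every shGFP library lay above every shBcat library for both genes, and replicate 2 was the highest shGFP library. The partner chain Col1a2 measured 5.21, 9.10 and 12.6 TPM against 49.04, 77.3 and 34.5, and its difference of -2.45 (SE 0.40) stood just outside the threshold (adjusted p = 0.0501). Col5a2, whose collagen V seeds collagen I fibrils, fell from 28.8, 43.4 and 19.4 TPM with shGFP to 8.60, 7.13 and 5.96 with shBcat (-1.88, SE 0.29, adjusted p = 0.046). Col5a1, the other main collagen V chain, went from 20.4 to 37.0 TPM with shGFP to 13.6 to 16.9 and did not pass (-0.80, adjusted p = 0.0725).

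The non-collagen members split in the same manner. Postn encodes periostin, a matricellular protein of fibroblasts that binds collagen I, and measured 1.45, 1.49 and 1.77 TPM with shBcat against 10.8, 14.8 and 7.09 with shGFP. It fell by 2.16 on the log2(TPM + 1) scale (SE 0.23, adjusted p = 0.0198, 6.93-fold). Dcn encodes decorin, a small leucine-rich proteoglycan that coats collagen fibrils, and went from 30.5, 49.03 and 21.1 TPM to 6.45, 6.14 and 6.76 (-2.13, SE 0.28, adjusted p = 0.0408). Lum, encoding the related lumican, went from 3.70, 5.16 and 3.25 TPM to 0.41, 0.95 and 1.28 (-1.43, SE 0.21, adjusted p = 0.0408). None of these groups overlapped. Fbn1, encoding the microfibril protein fibrillin 1, lay at 4.53 to 8.94 TPM with shGFP and 2.51 to 3.33 with shBcat and did not pass (adjusted p = 0.0621).

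Of the 49 genes, 31 passed the filter on low values (1 TPM in at least 2 QKO libraries) and were tested. Lower levels were called for 6 (Postn, Lum, Dcn, Col5a2, Col3a1 and Col1a1), a higher level for 0, and 25 did not pass, while 22 had an unadjusted p under 0.05. Over all genes tested, 2.15% were called, 0.585% higher and 1.56% lower (91 and 243 genes, or 142 and 169 under median-of-ratios scaling, which left the members' 6 calls in place). The median log2(TPM + 1) difference was -0.87 over the 31 and -0.04 over all genes. By family, 3 of 9 fibril-forming chains were called, and none of 4 basement membrane chains (median -1.04), 4 beaded-filament chains of collagen VI (median -1.08) or 5 fibril-associated chains (median -0.10). Col4a1 lay at 18.4 to 26.0 TPM with shBcat and 30.0 to 58.7 with shGFP (-0.88, adjusted p = 0.0951), and Col4a2 at 7.37 to 10.7 and 15.2 to 28.8 (-1.12, adjusted p = 0.0574). Col6a1 and Col6a2, which form collagen VI microfibrils with Col6a3, differed by -1.37 and -1.22 (adjusted p = 0.0574 for each). Col26a1 stood on the other side, at 1.07, 2.54 and 2.44 TPM with shBcat and 0.92 to 1.01 with shGFP (0.57, adjusted p = 0.135).

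The QKO calls rested on particular libraries. With 1 library left out, the count was 3 without shBcat replicate 1 (Postn and Lum lower, Col26a1 higher), 0 without shBcat replicate 2, 0 without shBcat replicate 3, 0 without shGFP replicate 1, 7 without shGFP replicate 2 and 16 without shGFP replicate 3, and 18 to 23 had an unadjusted p under 0.05 in each of these limma fits. It was 0 without the low-value filter, 0 without the variance trend and robust moderation, and 10 with a minimum of 5 TPM. The shares of all genes called in these fits are not given, so the shifts cannot be read as particular to the members.

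**Figure D2:**
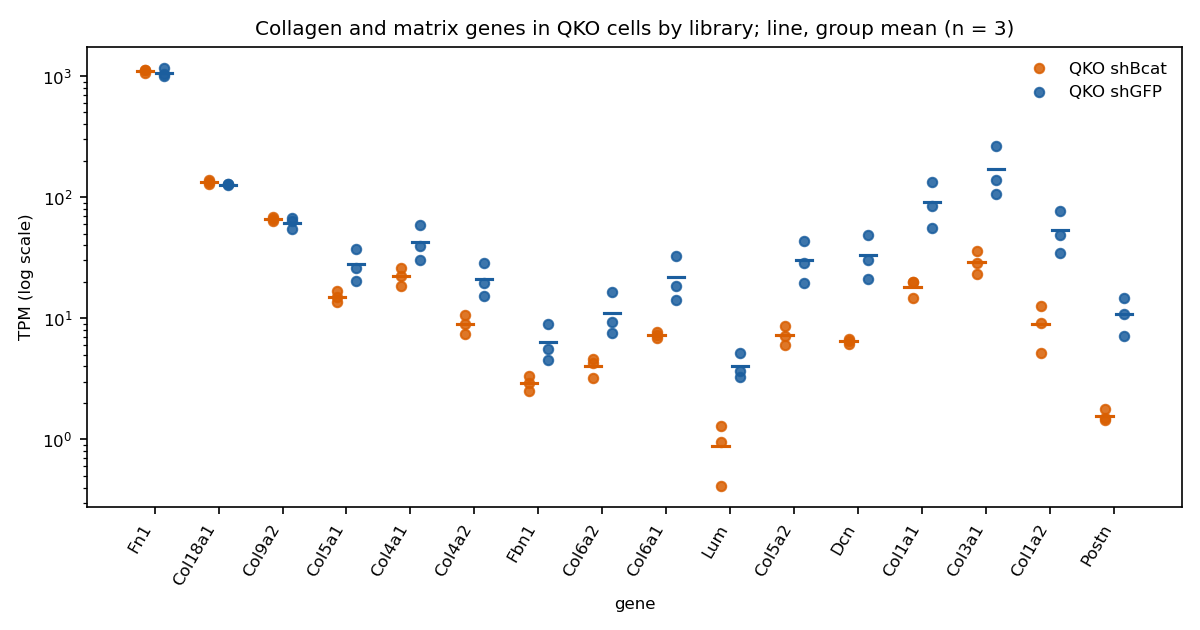
TPM on a log axis of 16 of the genes in each QKO library (points) with the group mean (line, n = 3). Fn1, Col18a1 and Col9a2 lie together in both groups, while all 3 shGFP libraries lie above all shBcat libraries from Col5a1 to Postn.

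Listed fibroblast markers, none of them a member, were also lower in sum with shBcat. Of 14 tested singly, 2 were called lower (Snai2 and Cdh11), where 1.56% of all genes tested were, and 12 did not pass. For 13 of the 14 the groups did not overlap, against 35.6% of all genes tested. The median difference was -0.82, against -0.04 over all genes. The 18 markers listed summed to 71.9, 67.4 and 63.3 TPM with shBcat and to 151, 242 and 116 with shGFP, 2.51-fold higher in the mean, and 13 or 14 of them reached 1 TPM per library. The groups did not overlap, and an exact two-sided permutation test gave p = 0.1, the smallest it can give with 3 against 3. The same test gave 0.1 for the endoderm, endothelial and smooth muscle sums below, of which the endothelial sum was higher with shBcat. It gave 0.3 for macrophage, 0.9 for ES cell and 0.4 for epiblast-like markers. The result is thus not particular to the fibroblast markers, which were listed with earlier results of these data known. The largest parts of the sum were Lox, at 9.47 TPM on average with shBcat and 44.8 with shGFP, and Mmp2, at 20.2 and 41.6. Lox is a collagen crosslinking enzyme that is also on the collagen processing list below, so the sum is not independent of the matrix genes. S100a4 averaged 5.58 and 15.9, Prrx1 3.63 and 11.3, Cdh11 3.37 and 9.92, and Pdgfra 5.06 and 8.17. In V6.5 2i, 11 of the 18 markers averaged under 0.5 TPM, with means of 0.02 TPM for Lox, 0.04 for Prrx1, 0.02 for Fap, 0.44 for Pdgfra and 0 for S100a4 and Mmp3. The V6.5 2i marker sums of 19.2 and 19.1 TPM came chiefly from Mmp2 (5.57), Thy1 (3.11) and Pdgfrb (2.72). Smooth muscle and myofibroblast markers summed to 46.4, 37.5 and 29.8 TPM with shBcat and 176, 343 and 112 with shGFP, with Acta2 at 10.3 and 79.9 on average, and 1 of 4 tested (Des) was called lower. Endoderm markers summed to 466 to 499 and 589 to 763 TPM, nearly all of it Sparc (461 and 624 on average), which is also on the list of other fibroblast matrix genes. Of 8 tested singly, 1 (Plat) was called lower and 7 did not pass. For all 8 the groups did not overlap, as for 35.6% of all genes tested (median difference -0.54). Gata6 (1.12 and 3.77 TPM on average), Dab2 (5.87 and 18.2) and Gata4 (3.77 and 5.16) lay lower with shBcat, and Hnf4a (1.26 and 0.71) higher. Endothelial markers summed to 38.4 to 40.7 and 37.5 to 38.1 TPM, mostly Egfl7 (26.2 and 22.1 on average) and Tek (10.7 and 11.3). Of 4 tested singly, 0 were called and 3 did not overlap between the groups. Egfl7 lay higher with shBcat, and Kdr (0.96 and 2.51) and Esam (0.78 and 1.16) lower. Macrophage markers summed to 24.6 to 28.4 and 27.7 to 33.0 TPM, nearly all of it Cd68 (26.1 and 29.5 on average). In bulk libraries, fewer cells of a type and less RNA per cell cannot be told apart. The fibroblast marker sums separate the hairpin groups completely, and the part of fibroblasts or of other cell types in the QKO differences was not tested.

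To describe which members varied with the markers, the slope of log2(TPM + 0.1) on the log2 marker sum was taken over the 6 QKO libraries for the 30 members averaging at least 1 TPM. A slope of 1 means proportional change. It was exceeded by 11 of the 30, which thus changed by more than in proportion to the marker sum. Why they did so was not tested. Slopes reached 0.5 for 20 of the 30, and for 5.39% of the 14925 genes at that level. The steepest were Postn (1.86), Col1a2 (1.80), Col3a1 (1.78), Dcn (1.66), Col1a1 (1.64), Col5a2 (1.49), Col12a1 (1.46) and Lum (1.45). Next came Col4a5 (1.28) and the collagen VI chains Col6a1 (1.16), Col6a2 (1.10) and Col6a3 (0.92), while the collagen VI chain Col6a5 had a slope of -0.15. Then Col4a2 (0.94), Fbn1 (0.85), Col4a1 (0.76) and Col5a1 (0.70) were shallower. Just inside the limit of 0.5 lay Col27a1 (0.58) and Col5a3 (0.57), and just outside it Col2a1 (0.35) and Col7a1 (0.23). Fn1 (0.01), Col22a1 (0.02), Col18a1 (-0.04) and Col9a2 (-0.12) had slopes near 0, and Col13a1 (-0.38) and Col26a1 (-0.62) sloped the other way. The 6 libraries share the hairpin contrast, so these slopes are descriptions and carry no test.

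Within the hairpin groups the picture was partly the same. With each group centred on its own mean, 20 members reached 0.5, and 19 did so in both forms. No share of all genes is given for the centred form, so this count has no background beside it. The marker sum spanned 63.3 to 71.9 TPM with shBcat and 116 to 242 with shGFP. The centred slopes therefore rest mostly on the shGFP libraries and do not show tracking within shBcat. Col3a1 (1.11), Dcn (1.08), Col1a1 (1.07), Col12a1 (1.27) and Col4a1 (0.95) stayed steep, Postn (0.88) and Col1a2 (0.85) became shallower, Lum fell outside the limit (0.38) and Col7a1 came inside it (0.94). Among the shGFP libraries, 21 of 30 members lay in the order of the marker sum, against 25.8% of all genes. Among the shBcat libraries 13 of 30 did, against 24.5%, and 10 of 30 did in both groups, against 8.31%. Col4a1, Col4a2, Col5a1, Col5a2, Col6a1, Col6a2, Col12a1, Col4a5, Col5a3 and Fbn1 followed the markers in both groups. Col1a1, Col1a2, Col3a1, Lum and Postn followed them among shGFP libraries, yet among shBcat libraries were lowest in replicate 1, which had the highest marker sum. In a repeat chosen after seeing the data, the 11 markers averaging under 0.5 TPM in V6.5 2i were summed alone (29.6 to 34.5 TPM with shBcat, 65.1 to 149 with shGFP). The slope then reached 0.5 for 18 members, with Col27a1 (0.48) and Col5a3 (0.46) falling outside. Here too the share of all genes is not given.

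**Figure D3:**
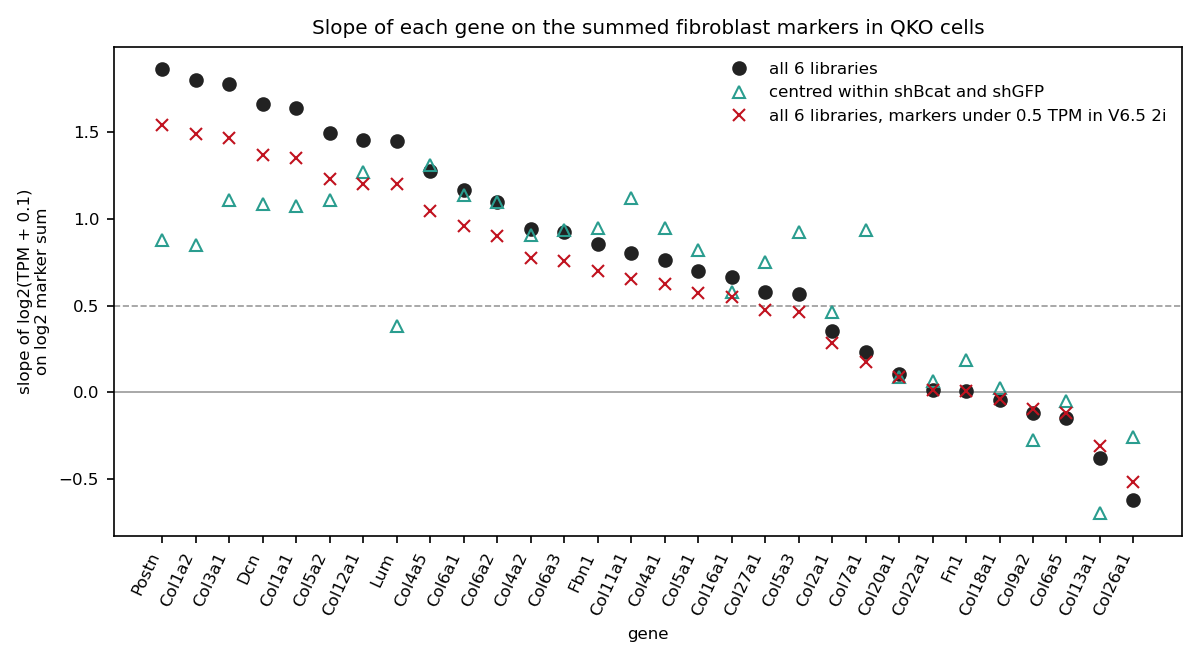
Slope of log2(TPM + 0.1) on the log2 fibroblast marker sum in QKO cells for the 30 genes averaging at least 1 TPM: over all 6 libraries (dots), centred within each hairpin group (triangles), and over all 6 libraries on the markers under 0.5 TPM in V6.5 2i (crosses). The dashed line marks 0.5, and dots fall from 1.86 for Postn to -0.62 for Col26a1.

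Companion genes of the matrix were counted from lists of related genes. In QKO cells, 1 of 27 tested genes of collagen folding, modification and crosslinking was higher with shBcat and 1 lower. Of all genes tested, 0.585% were higher and 1.56% lower. Plod2, a lysyl hydroxylase, rose from 48.2 to 49.4 TPM with shGFP to 55.8 to 56.5 (0.20, adjusted p = 0.047), and Loxl1, a crosslinking oxidase, fell from 2.76 to 6.56 TPM to 0.91 to 1.25 (-1.32, adjusted p = 0.047). Of 21 other fibroblast matrix genes, Fbln2 and Tnc were lower and Tgfbi was higher. For 16 of the 21 the groups did not overlap, against 35.6% of all genes tested, with median differences of -0.67 and -0.04. The medians were -0.13 for the collagen processing genes, -0.04 for laminin and basement membrane genes and -0.13 for receptors. Fbln2, encoding fibulin 2, averaged 10.8 TPM with shBcat and 45.3 with shGFP (-1.90, adjusted p = 0.047), and Tgfbi averaged 9.18 and 5.82 (0.58, adjusted p = 0.047). None of 14 laminin and basement membrane genes passed, nor any of 12 collagen and fibronectin receptors. Nid2, encoding the basement membrane linker nidogen 2, lay at 282 to 295 TPM with shBcat and 259 to 265 with shGFP (0.13, adjusted p = 0.0694).

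From V6.5 2i to epiLC, Fn1 and Col9a2 fell and Col18a1 and Col2a1 rose. Fn1 measured 564 and 578 TPM in 2i, 148 and 149 at 24 h and 159 and 171 at 48 h, and Col9a2 measured 36.5 and 35.2, then 2.98 and 3.53, then 4.60 and 6.19. Both fell by 24 h, Fn1 by 1.94 (SE 0.04, adjusted p = 8.59e-08) and Col9a2 by 3.12 (SE 0.12, adjusted p = 1.54e-06) on the log2(TPM + 1) scale. Col18a1 went the other way, from 42.8 and 42.2 TPM to 181 and 182 and then 313 and 318. It rose at both steps (2.07, SE 0.03, then 0.79, SE 0.03) and was 7.43-fold higher at 48 h than in 2i. No 2i library overlapped any epiLC library for these 3 genes, where groups of all genes tested did not overlap for 87.7% from 2i to 24 h, 86.9% from 24 to 48 h and 87.2% from 2i to 48 h.

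Members with an early peak differed from those that came late. Col6a5, a collagen VI chain, measured 0.78 and 0.92 TPM in 2i, 15.6 and 15.5 at 24 h and 4.59 and 5.14 at 48 h. It rose by 3.16 (SE 0.08, adjusted p = 1.99e-07) and then fell by 1.50 (SE 0.08, adjusted p = 4.91e-06). Dcn followed the same course at a lower level, listed at 0 and 0.05 TPM in 2i, 3.22 and 3.47 at 24 h and 2.14 and 1.94 at 48 h (2.08, then -0.52). Col8a2, a short-chain network collagen, rose to 1.92 and 1.88 TPM at 24 h from 0.21 and 0.20 and measured 1.76 and 1.87 at 48 h, where no further change passed the test. Col26a1 did the opposite of Col6a5, at 3.95 and 3.97 TPM in 2i, 0.63 and 0.79 at 24 h and 5.77 and 5.94 at 48 h (-1.54, then 2.00).

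By 48 h fibril and network chains were higher together. Col2a1, the fibril chain of cartilage that is also made in early neural and mesodermal tissue, measured 1.65 and 1.49 TPM in 2i, 10.2 and 10.3 at 24 h and 51.2 and 52.3 at 48 h, 32.9-fold above 2i (4.36, SE 0.05, adjusted p = 1.67e-08). Col4a1 measured 5.08 and 4.5, 6.0 and 6.73, then 31.3 and 33.8 TPM, and Col4a2 2.74 and 2.80, 1.32 and 1.59, then 15.0 and 15.7. The pair diverged in the first 24 h, when Col4a1 rose by 0.35 and Col4a2 fell by 0.62, and rose together afterwards (2.19 and 2.74). Collagen I and III chains were near 0 in 2i and at 24 h and low but present at 48 h. Col1a2 reached 4.79 and 4.32 TPM, Col3a1 3.16 and 2.41, and Col1a1 1.91 and 1.97, all called higher than at 24 h. Postn stayed at or under 0.17 TPM and Lum at or under 0.11 in all 6 libraries, below the filter.

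**Figure D4:**
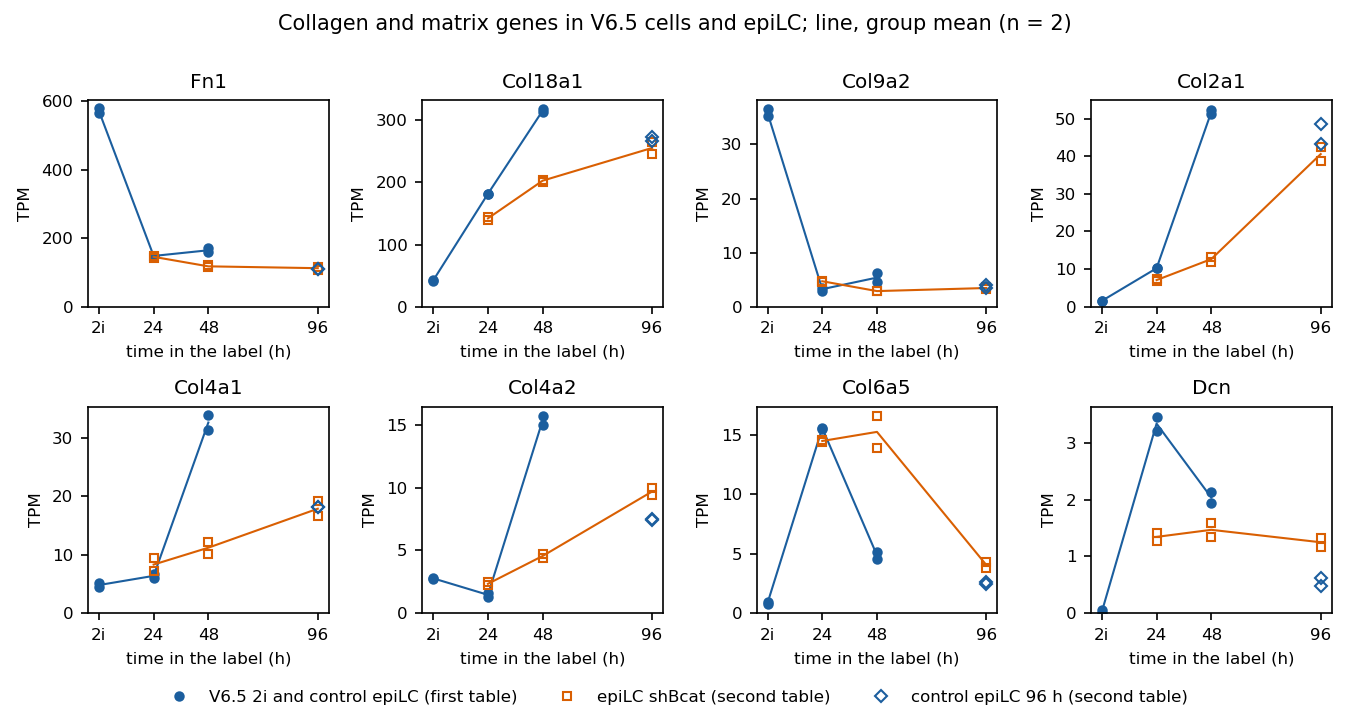
TPM of 8 genes by the time in the label, each library as a point and group means (n = 2) joined by lines within a table. Fn1 and Col9a2 are high in 2i, Col6a5 and Dcn are highest at 24 h in the control series, and Col18a1, Col2a1, Col4a1 and Col4a2 are highest at 48 h there, while with shBcat their highest levels are at 96 h.

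Of the 49 genes, 29 passed the filter in the libraries of V6.5 2i and control epiLC. From 2i to 24 h, 9 were called higher and 12 lower, against 36.2% and 39.8% of all genes tested (76% in either direction), and the median differences were 0.03 and -0.04. From 24 to 48 h, 25 were higher and 3 lower (Col6a5, Dcn and Col17a1), against 45.2% and 28.9% (74.2% in either direction), with medians of 1.05 and 0.12. From 2i to 48 h, 25 were again higher and 3 lower (Col9a2, Fn1 and Col17a1), against 45.1% and 30.8% (75.9% in either direction), with medians of 1.03 and 0.11. Comparisons here share libraries. All 9 tested fibril-forming chains and all 3 tested basement membrane chains were called higher at 48 h than at 24 h. The calls from 24 to 48 h numbered 17 without 48 h replicate 2, and those from 2i to 48 h 18 without either 48 h replicate, with 20 members then passing the filter. Under median-of-ratios scaling, the median of all genes from 24 to 48 h went from 0.12 to 0.02, and 24 members were called higher and 3 lower.

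The summed fibroblast markers were higher at 48 h here as well, while several of those listed lay near 0. Of 8 tested singly, 6 were called higher at 48 h than in 2i and 1 lower, against 45.1% and 30.8% of all genes tested. From 24 to 48 h, 5 of the 8 were higher and 1 lower, against 45.2% and 28.9%. The sum was 19.2 and 19.1 TPM in 2i, 27.8 and 29.9 at 24 h and 87.8 and 93.8 at 48 h, with 6 markers at 1 TPM in 2i and at 24 h and 8 at 48 h. At 48 h it came mostly from Mmp2 (58.0), Twist1 (11.3) and Prrx2 (9.12), while Lox averaged 0.34 TPM, Prrx1 0.16, S100a4 and Fap 0.02 and Mmp3 0. Smooth muscle markers summed to 15.4 to 16.8 TPM in 2i and at 24 h and to 296 and 329 at 48 h, with Tagln at 242 and Acta2 at 22.8. Endoderm markers summed to 163 and 165, 114 and 114, then 211 and 215 TPM. Their part in these differences was not tested.

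Genes of collagen processing, basement membranes and matrix receptors were counted over the same interval, in which 45.2% of all genes tested were higher and 28.9% lower. From 24 to 48 h, 18 of 24 collagen processing genes were higher and 5 lower, 12 of 14 laminin and basement membrane genes higher and 2 lower, 13 of 17 other fibroblast matrix genes higher and 2 lower, and 11 of 13 receptors higher and 1 lower. Serpinh1, the collagen chaperone HSP47, went from 151 to 153 TPM in 2i to 66.3 to 67.7 at 24 h and 272 to 274 at 48 h. Hspg2, encoding perlecan, rose from 22.8 to 23.1 TPM at 24 h to 112 to 119 at 48 h (2.28, adjusted p = 1.32e-07). P4ha1, a prolyl hydroxylase subunit needed for a stable triple helix, was lower at 24 h than in 2i, at 8.81 to 9.15 against 90.7 to 94.2 TPM (-3.23, adjusted p = 2.81e-08). Itgb1, the shared β chain of collagen and fibronectin receptors, rose from 105 to 107 TPM at 24 h to 315 to 329 at 48 h (1.60). Ccn1 and Ccn2, secreted matricellular proteins, rose by 4.22 and 3.22 over the same interval.

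With β-catenin knocked down, few members passed the test in epiLC at 96 h. Col6a5 measured 4.30 and 3.78 TPM with shBcat and 2.47 and 2.64 in the control, 1.58-fold higher (0.50, SE 0.10, adjusted p = 0.032). Dcn measured 1.33 and 1.17 TPM against 0.62 and 0.47, 2.29-fold higher (0.54, SE 0.11, adjusted p = 0.0365). Neither pair of groups overlapped, as for 45% of all genes tested. These were the 2 called among the 24 members tested, with 0 lower and 22 not passed, against 4.82% of all genes called (2.29% higher, 2.54% lower), and 8 members had an unadjusted p under 0.05. Medians were 0.03 for the members and -0.01 for all genes. Without any 1 of the 4 libraries, 0 members were called and 5 to 7 had an unadjusted p under 0.05 in limma, and 0 were called with the compared groups fitted alone.

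Fn1, Col18a1, Col2a1 and the collagen IV chains did not pass the threshold here. Fn1 measured 108 and 117 TPM with shBcat and 109 and 111 in the control (0.03, SE 0.06), and Col18a1 246 and 265 against 266 and 273 (-0.08, SE 0.05). Col2a1 measured 38.7 and 42.4 TPM against 43.2 and 48.5 (-0.17, SE 0.09, adjusted p = 0.319). Col4a2 was the nearest to the threshold, at 9.42 and 9.97 TPM against 7.41 and 7.50 (0.34, SE 0.08, adjusted p = 0.0586), while Col4a1 overlapped at 16.5 and 19.2 against 18.2 and 18.2. Of 25 collagen processing genes, 4 were lower with shBcat and 0 higher: Loxl2 averaged 3.52 TPM against 10.8 (-1.38, adjusted p = 0.000551), P4ha1 16.9 against 31.7 (-0.87, adjusted p = 0.000733), P4hb 388 against 462 and P4ha2 27.6 against 34.0. None of 13 laminin and basement membrane genes and none of 9 receptors passed, and of 17 other fibroblast matrix genes Sparc was higher and Ccn1 lower.

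Over time in epiLC with shBcat, Col2a1, Col18a1 and Col4a2 rose and Col6a5 fell late. From 24 to 48 h, 8 of 24 were higher and 2 lower, against 15.7% and 17.8% of all genes (33.4% in either direction), and from 48 to 96 h, 11 were higher and 3 lower, against 25.2% and 9.83% (35% in either direction; 3856 and 1504 genes, or 2577 and 2378 under median-of-ratios scaling, with 9 members higher and 4 lower). Col2a1 measured 7.33 and 6.85 TPM at 24 h, 12.0 and 13.3 at 48 h and 38.7 and 42.4 at 96 h, rising by 0.76 and then 1.60. Col18a1 measured 145 and 139, 201 and 205, then 246 and 265 TPM, and Col4a2 2.23 and 2.44, 4.43 and 4.68, then 9.42 and 9.97, with both steps called for each and no overlap between times, as for 73.2% and 68.8% of all genes at these steps. Col6a5 measured 14.4 and 14.6 TPM at 24 h and 13.9 and 16.6 at 48 h, with no called change, and fell to 4.30 and 3.78 at 96 h (-1.69, SE 0.10, adjusted p = 5.63e-05). In the separately normalized control table it was at 4.59 and 5.14 TPM by 48 h. Col13a1, a transmembrane collagen, rose by 0.73 and then fell by 0.57. The count of calls was 6 without either 48 h library for the first step, and 9 without shBcat 48 h replicate 1 and 8 without replicate 2 for the second.

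Side by side and without a test, since the tables were normalized separately, the groups at 48 h had the following levels. Col2a1 stood at 51.2 and 52.3 TPM in the control and at 12.0 and 13.3 with shBcat, Col4a1 at 31.3 and 33.8 and at 10.2 and 12.2, and Col4a2 at 15.0 and 15.7 and at 4.43 and 4.68. At 24 h the same genes were closer, with Col2a1 at 10.2 and 10.3 and at 7.33 and 6.85, and Col4a1 at 6.0 and 6.73 and at 9.47 and 7.12. Fibroblast markers in the shBcat series summed to 19.2 and 22.4 TPM at 24 h, 35.5 and 35.4 at 48 h and 53.0 and 51.7 at 96 h, and to 48.4 and 50.1 in the 96 h control. Smooth muscle markers at 48 h summed to 296 and 329 TPM in the control and to 21.1 and 20.1 with shBcat, and at 96 h to 51.3 and 53.5 in the control and 58.8 and 46.0 with shBcat. Their part in the levels was not tested. Postn did not exceed 0.11 TPM, Lum 0.06 or Col6a3 0.23 in any of these 8 libraries.

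In V6.5 ES cells with hairpins, 10 of the 32 members in the FPKM table passed the filter. The 6 shGFP libraries lay in pairs: replicates 1 and 2, 3 and 4, and 5 and 6 differed by a median of 0.0506 to 0.0657 on the log2(FPKM + 1) scale, and libraries of different pairs by 0.158 to 0.371. The number of separate samples behind the 6 is thus uncertain, and the 3 comparisons with shGFP share these controls.

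With shBcat, 0 of 10 members were called by limma, 4 had an unadjusted p under 0.05, and 8.71% of all genes tested were called, 3.51% higher. Col4a1 measured 4.11 and 4.29 FPKM with shBcat and 0.911 at the lowest, 1.37 at the median and 2.91 at the highest with shGFP (1.00, SE 0.30, adjusted p = 0.0716). Col4a2 measured 2.48 and 2.34 against 0.584, 0.930 and 1.91 (0.72, SE 0.22, adjusted p = 0.0789). Col18a1 measured 71.4 and 72.7 FPKM against 27.4, 46.0 and 49.6 (0.85, SE 0.33, adjusted p = 0.145), and Col2a1 1.70 and 1.81 against 0.644, 0.813 and 0.969 (0.60, SE 0.22, adjusted p = 0.128). In each of these 4 genes both shBcat libraries lay above all 6 controls, as groups did not overlap for 34.2% of all genes. In alternative fits, Col4a1 and Col4a2 were called higher without shGFP replicate 1 or without replicate 2 (2 members each). Col4a1 was also called under median-of-ratios scaling, and Col2a1 with these groups fitted alone. Col4a1 and Col4a2 were called with a yes-or-no term for libraries of high mitochondrial share. Fn1 measured 183 and 182 FPKM, inside the shGFP range of 144 to 210.

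With shE2F6, 0 members were called by limma, 3 had an unadjusted p under 0.05, and 1.06% of all genes were called, 0.652% lower (59 higher and 94 lower, or 146 and 109 under median-of-ratios scaling, which moved the median of all genes from -0.20 to -0.04). Col18a1 measured 25.4 and 11.5 FPKM (-1.16, SE 0.33, adjusted p = 0.0761) and Col4a1 0.54 and 0.29 (-0.88, SE 0.30, adjusted p = 0.0998), both below every control. Col9a2 measured 7.79 and 3.40 FPKM and overlapped the controls, which ranged from 4.89 to 26.9. The shGFP replicates with the high mitochondrial share, 3 and 4, held the lowest control values for Col18a1 (27.4 and 27.5), Col9a2 (4.89 and 4.92) and Col4a1 (0.956 and 0.911), and the shE2F6 libraries had that share too. Without shGFP replicate 3 or without replicate 4, Col18a1 and Col4a1 were called lower. With the yes-or-no term for high mitochondrial share in the limma fit, the differences were -0.65 for Col18a1 (adjusted p = 0.251) and -0.45 for Col4a1 (adjusted p = 0.436). The part of that share in these values was not tested further.

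With shHP1r, 3 members were higher and 0 lower, where 7.59% of all genes tested were called and 5.89% of all genes tested were higher. Fbn1 measured 1.93 and 1.08 FPKM against 0.395, 0.470 and 0.756 at the lowest, median and highest control (0.69, SE 0.14, adjusted p = 0.0149). Col4a1 measured 6.83 and 3.67 (1.22, SE 0.30, adjusted p = 0.037), and Col5a1 3.80 and 2.47 against 0.785, 1.38 and 1.93 (0.82, SE 0.22, adjusted p = 0.0451). All these groups were separate, and replicate 1 held the higher value each time. Col4a2 at 2.58 and 2.76 FPKM was just short of the threshold (0.82, SE 0.22, adjusted p = 0.052). Fibroblast markers, of which 10 of 18 are in the table, summed to 24.8 and 14.3 FPKM with shHP1r, 6.29 to 12.5 with shGFP, 9.95 and 9.61 with shBcat and 5.17 and 4.07 with shE2F6. Endothelial markers, 6 of 8 in the table, summed to 17.5 and 14.2 FPKM with shHP1r and 4.29 to 8.85 with shGFP, and 1 of 3 tested (Tie1) was called higher. Endoderm markers summed to 87.97 and 67.6 against 48.2 to 76.1, and 2 of 4 tested (Dab2 and Lrp2) were called higher. The part of these cell types in the calls was not tested. Without shHP1r replicate 1, 0 members were called and 1 had an unadjusted p under 0.05. The count was 5 without shGFP replicate 1 or 2, and 1 (Fbn1) without any 1 of shGFP replicates 3 to 6. It was 0 with the compared groups alone and with libraries averaged in pairs.

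**Figure D5:**
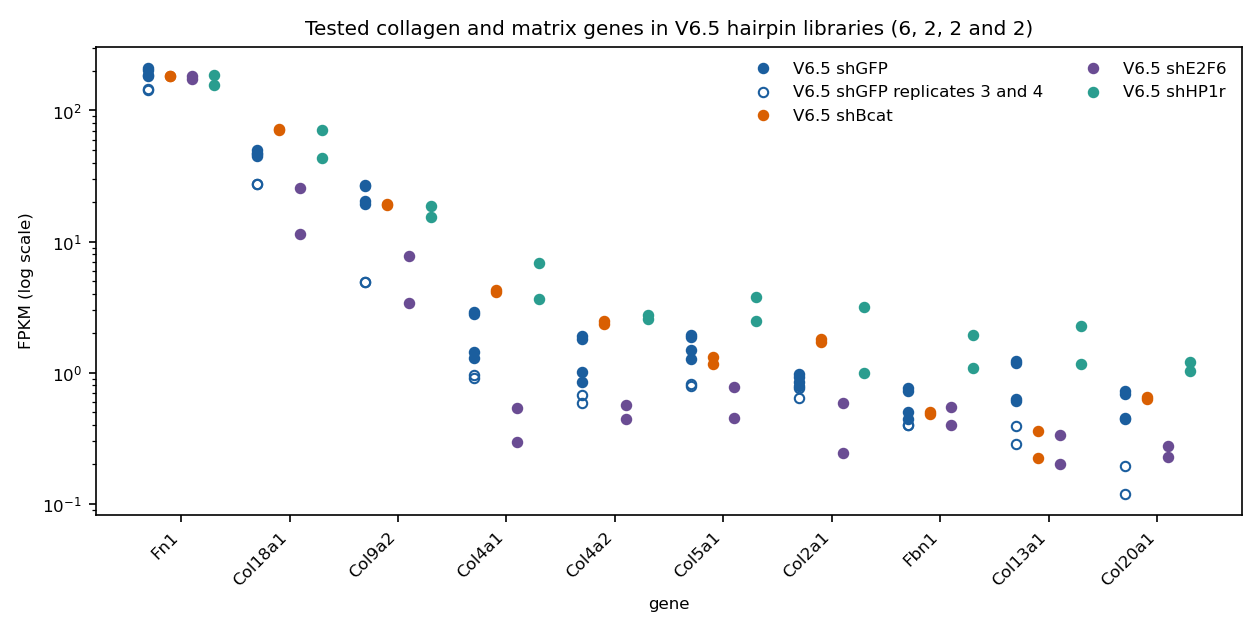
FPKM on a log axis of the 10 tested genes in each V6.5 hairpin library (points; shGFP 6, the others 2 each), with shGFP replicates 3 and 4 open. Fn1 overlaps throughout, Col18a1 and Col4a1 are highest with shBcat or shHP1r and lowest with shE2F6, and the open points are the lowest controls for Col18a1, Col9a2 and Col4a1.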

How the data were processed

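RNA was measured in 32 mouse libraries across 4 tables, and 18 ChIP samples of the series were not analysed here. The authors deposited FPKM values whose listed tools are Bowtie2, bcl2fastq 2.18, Cufflinks 2.2.1 and TopHat2 2.0.13, and TPM values whose listed tools are RSEM, STAR, Bowtie2 and bcl2fastq 2.18, on mm10, per the submitters' processing notes. The other versions, and the counts, are not given in the sources used here, so depth is unknown. One deposited FPKM column of the 2 named for shHP1r replicate 2 was used, leaving 1 further per-sample column unused.

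Values were taken as log2(value + 1), a scale on which changes of low genes come out too small, and genes at 1 or more in at least 2 libraries were tested. Each table was fitted once over all its libraries with limma 3.58.1 and statmod 1.5.0 in R 4.3.3 (trend and robust moderation). Adjusted p is by Benjamini and Hochberg over all genes tested in two-sided tests, with a threshold of 0.05. Folds are ratios of mean values. Scripts were tested on simulated data. QKO slopes used log2(TPM + 0.1). Alternatives changed the pseudocount, filter, scaling, moderation, samples, block and covariates. Members and lists were chosen with earlier results of these data known. Single-library values are given for a fixed set of members, for the 8 highest per table and for up to 6 rises and 6 falls per comparison, and up to 4 genes of each companion list by smallest p. Any other named gene was chosen after its values were seen.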

Additional observations from a re-analysis of the deposited data

Results flagged for a closer look

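Several members differed in opposite directions with shBcat in different cells, with every shBcat library on one side of every control in each. Taken singly, groups did not overlap for 35.6% of all genes tested in QKO, 34.2% in V6.5 2i and 45% in epiLC at 96 h. The share of all genes doing so in opposite directions was not counted. The differences between cells were not tested, since they lie in tables normalized separately, and most of the changes did not pass the test within their table. Between QKO cells and V6.5 cells in 2i, the log2 differences were -0.32 and 0.60 for Col2a1, -0.88 and 1.00 for Col4a1, and -1.12 and 0.72 for Col4a2.

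The QKO and V6.5 2i controls carried shGFP, while the epiLC control names no hairpin, so the kind of control differs along with the cells. Between QKO cells and epiLC at 96 h, Dcn differed by -2.13 and 0.54, both past the threshold. As given above, no member was called in epiLC with any single library left out, and none in QKO without certain libraries. Col4a2 differed by -1.12 and 0.34, Col27a1 by -0.50 and 0.25, and Col18a1 by 0.08 and -0.08. Between V6.5 2i hairpin cells and epiLC at 96 h, Col18a1 differed by 0.85 and -0.08, and Col2a1 by 0.60 and -0.17.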

How the results depend on the processing

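Counts of members called by limma moved with several settings, and beyond the settings' own construction the cause was not tested. They are given without the share of all genes called under the same setting, so the shifts cannot be read as particular to the members. With no filter on low values the count was 0 in QKO (24 members with an unadjusted p under 0.05), 0 in epiLC at 96 h (9), 1 for V6.5 shBcat and 11 for shHP1r. With a minimum of 5, which leaves fewer genes, it was 10 in QKO, 8 in each of the 3 comparisons of 2i and control epiLC, 1 in epiLC at 96 h, 6 and 7 for the shBcat steps to 48 and 96 h, and 0 for shHP1r (0 unadjusted, 3 tested). Without trend and robust moderation it was 0 in QKO (22) and 4 in epiLC at 96 h. With the compared groups alone it was 0 in epiLC at 96 h (6), 1 for V6.5 shBcat and 0 for shHP1r (6). Median-of-ratios scaling gave 1 for V6.5 shBcat, and a pseudocount of 0.1 gave 1 for shHP1r. The mitochondrial term gave 2 for V6.5 shBcat and 5 for shHP1r, averaging pairs 0 for shHP1r (2), and the fibroblast term, whose values separate the QKO groups as the hairpins do, 0 in QKO (4).

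With 1 library left out, counts ranged from 0 to 16 in QKO, 18 to 19 from 2i to 24 h, 17 to 28 from 24 to 48 h, 18 to 27 from 2i to 48 h, 0 to 0 in epiLC at 96 h, 6 to 7 and 8 to 11 for the shBcat steps, 0 to 2 for V6.5 shBcat, 0 to 2 for shE2F6 and 0 to 5 for shHP1r. QKO slopes of 0.5 or more numbered 18 to 22 under every alternative run.

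The replicate number was tried as a block although numbers were taken not to pair samples: deviations of same-numbered libraries correlated at -0.01, -0.04 and 0.13 in QKO. Under the replicate block the count was 3 in QKO (21 unadjusted), 8 for shE2F6 and 0 for shHP1r (6), and within 1.5 times the reported count elsewhere. For Fn1, V6.5 shE2F6 against V6.5 shGFP went from 0.01 to -0.22 (adjusted p = 0.0456) under the block. For single genes, 2229 alternative values kept direction and call, 65 came to pass, 149 ceased to pass and 1 changed sign. Depth is unknown, so no limit of detection is given for genes listed at 0.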
